A study of Homo sapiens with 2 samples.

Results

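The interleukin-1 family was examined in SKOV3 cells, a human ovarian adenocarcinoma cell line, after knockdown of the transcription factor RUNX2. RNA of the shRNA-RUNX2 knockdown clone 3 (cl-sh3) was hybridized together with RNA of a control (mock-transfected) SKOV3 clone on 2-colour Agilent whole human genome arrays. Both clones were infected with lentivirus and selected with puromycin: cl-sh3 carried a RUNX2 shRNA in the pLKO.1-puro vector, and the control carried a scramble sequence in the same vector. Each side is 1 clone, so that an effect of the knockdown and a difference between single clones cannot be told apart. The paper took clone 3 for the arrays because its proliferation, migration and invasion were inhibited more than those of another knockdown clone. In hybridization 1 cl-sh3 was labelled with Cy5 and the control with Cy3, and in hybridization 2 the dyes were reversed. The same pair of RNAs was used on the same slide, which makes the arrays a technical repeat of 1 replicate. No p-value can be given, and each value is therefore printed for both hybridizations.

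The genes were IL1A, IL1B, IL1RN, IL18 and IL33 among the ligands, IL1R1, IL1R2, IL1RAP and IL1RL1 among the receptors, and the kinase IRAK1. They were chosen by name and with earlier results of these data known. Every probe whose RefSeq accession maps to one of these symbols was taken. This gave 15 of the 41000 probes and 10 of the 17240 genes named on the arrays. Values are log2 ratios of cl-sh3 over control after background correction and loess normalization, so that a negative value means less RNA in cl-sh3. A probe was kept when the scanner software flagged the signal of the same RNA, cl-sh3 or control, as well above background on both arrays. A probe was called changed when it differed at least 2-fold, or 1 on the log2 scale, in the same direction in both hybridizations. In total, 36065 probes (88.0%) were kept, among them 14 of the 15 family probes and 9 of the 10 genes.

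Interleukin-1 is an alarm cytokine of inflammation. Its forms, interleukin-1alpha (IL1A) and interleukin-1beta (IL1B), bind the same receptor IL1R1, which then recruits the accessory protein IL1RAP. The pair of receptors signals through the adaptor MYD88 and kinases of the IRAK family to NF-kappaB, a transcription factor that induces cytokines, chemokines and matrix proteases. Interleukin-1alpha is active as the full-length precursor, whereas interleukin-1beta and interleukin-18 need cleavage by caspase-1. Signalling is held in check by the antagonist IL1RN, which occupies IL1R1, and by the decoy receptor IL1R2. Interleukin-33 acts through its own receptor IL1RL1 and also uses IL1RAP. Carcinoma cells, including those of the ovary, are known to produce interleukin-1.

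Of the family, IL1A was lower in cl-sh3 by a wide margin, and no other kept probe reached 2-fold in either hybridization. The IL1A value of -2.72 in hybridization 1 and -2.18 in hybridization 2 gave a mean of -2.45, or 5.46-fold less RNA in cl-sh3. IL1B was lower in both hybridizations but by 1.46-fold, and IRAK1 was higher in both by 1.36-fold. Thus 1 of the 14 kept family probes was at least 2-fold lower and 0 were at least 2-fold higher. Of all kept probes, 0.394% were at least 2-fold lower and 0.122% at least 2-fold higher. The paper already names IL1A among the lowered genes of these arrays, so that this count is not independent of the choice of genes. It also reports lower IL1A RNA in cl-sh3 by quantitative PCR. In both hybridizations 4 of the 14 probes were below 0 and 4 were above 0, and the other 6 had opposite signs, against 27.3%, 29.8% and 42.9% of all probes. The median of the 14 means was 0.03, beside 0.01 for all kept probes. In such bulk RNA, fewer cells making a transcript and less of it per cell cannot be told apart.

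**Figure D1:**
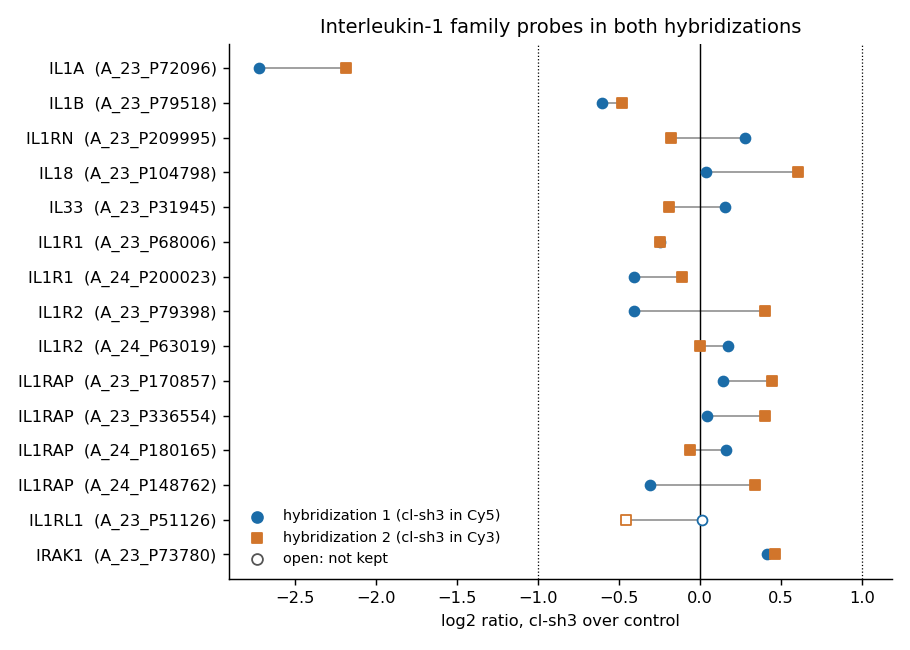
Log2 ratio of cl-sh3 over control (horizontal axis) for each of the 15 probes of the interleukin-1 family. Circles are hybridization 1, squares hybridization 2, open symbols a probe that was not kept, and dotted lines mark 2-fold; IL1A alone lies beyond them, at -2.72 and -2.18, and the other probes lie within 0.61 of 0.

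As a gauge of technical error, the disagreement between the arrays was read from all probes. Between the arrays, the gap in log2 ratio had a median of 0.22 over all kept probes and a 95th percentile of 0.63. The gap of 0.54 for IL1A was well under the size of its mean change, 2.45. The gaps of IL1B (0.12) and IRAK1 (0.05) were also smaller than their own changes, but 29.4% and 11.5% of all kept probes had smaller gaps. Their mean changes, -0.54 and 0.44, were smaller in size than the 95th percentile of 0.63. That percentile is for the full gap between arrays, however, and is wider than the error of a mean of both. Each array lay 0.06 from the mean for IL1B and 0.02 for IRAK1. For 10 of the 11 other kept probes the gap was at least as large as the mean change, the exception being a probe of IL1R1. Moreover, probes of IL1R2 and IL1RAP had gaps of 0.81 and 0.65, above that percentile.

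The knockdown itself was seen with 1 of the 3 RUNX2 probes. Probe A_32_P161762 had log2 ratios of -2.04 and -1.31, or 3.18-fold less RNA in cl-sh3. The other RUNX2 probes were at 0.18 and -0.13 (A_24_P69267) and at -0.29 and -0.17 (A_32_P148058). Both were dimmer, with mean log2 intensities of 8.36 and 7.58 against 10.37 for A_32_P161762. A_24_P69267 is for the same RUNX2 transcript as A_32_P161762, and A_32_P148058 is for another. Why the 3 probes differed was not tested. The paper reports lower RUNX2 RNA by RT-PCR and lower protein by Western blot in this clone. The cells were also examined for their identity. Epithelial genes were well above background in both clones for 11 of 11 markers, with KRT18 at 0.54 and 0.44 and EPCAM at 0.50 and 0.37. Of these 11 markers, 8 were above 0 in both hybridizations with a median of 0.37, beside 29.8% above 0 among all probes. The receptor gene ERBB2, at -0.86 and -0.45, was the only marker below 0 in both. These 3 markers were picked after their values were seen. Their part in the results was not tested. The flag for signal above background is permissive, since 12 of 13 leukocyte markers were kept as well, with means from -0.09 to 0.25. It therefore does not show that a gene is expressed in these cells, and levels of different probes cannot be set against each other on these arrays.

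The start of the IL1A gene is shown because IL1A carries the main difference, and that of IL1B because it is the next ligand of the cluster. Both windows end 1 base before the transcript start in RefSeq (GRCh38.p14) and run 5′ to 3′ on the minus strand of chromosome 2. IL1A lies at chr2:112784494-112784743 and IL1B at chr2:112836780-112837029. Capitals mark a match to the AP-1 motif TGANTCA, the element bound by FOS and JUN proteins.
IL1A: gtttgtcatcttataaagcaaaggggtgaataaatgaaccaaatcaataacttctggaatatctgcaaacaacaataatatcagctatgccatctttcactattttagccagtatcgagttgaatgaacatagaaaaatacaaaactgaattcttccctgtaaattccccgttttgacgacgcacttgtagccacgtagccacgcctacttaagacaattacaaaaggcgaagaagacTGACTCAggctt
IL1B: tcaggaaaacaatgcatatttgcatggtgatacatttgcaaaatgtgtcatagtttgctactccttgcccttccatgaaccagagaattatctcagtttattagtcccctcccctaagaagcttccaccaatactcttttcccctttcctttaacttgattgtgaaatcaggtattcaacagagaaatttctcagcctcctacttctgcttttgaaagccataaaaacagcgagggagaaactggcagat

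Both windows are rich in A and T, with 37.6% G and C for IL1A and 40.0% for IL1B. The AP-1 match of IL1A lies between 12 and 6 bases before this start. RefSeq lists a further start of IL1A, whose window holds the same match and another one, TGAGTCA, nearer to that start. The RUNX motif, searched as TGTGGT or TGCGGT on both strands, had no match in the windows of IL1A or IL1B. Among the 18 windows of 9 family genes it matched in 3, one each of IL1R1, IL1RL1 and IL1RN, and among all 35116 promoter windows in 16.3%. The AP-1 motif matched in 4 of the 18 windows, of IL1A, IL1RL1 and IL1RN, against 6.57% of all windows. The NF-kappaB consensus matched in 2, of IL1R2 and IRAK1, against 9.96% of all. No motif overlapped another in these windows, although windows of the same gene can overlap. The matches are letters in a window of 250 bases and say nothing about binding, and IL18 was not among the windows.

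The stretches around the RUNX matches are shown so that they can be set beside the values of these genes, with the motif in capitals (reverse strand for IL1RN). They lie at chr2:102142056-102142085 for IL1R1, chr2:102311383-102311412 for IL1RL1 and chr2:113127561-113127590 for IL1RN, all on the plus strand. IL1R1 and IL1RN were not called changed, and IL1RL1 was not kept, so that it could not be called.
IL1R1: ccccaagTGTGGTatcaagattttatagta
IL1RL1: aaatagggagaaTGTGGTgaaaactgcagt
IL1RN: atttctttataaACCACAactctgggcccg

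Among the ligands, IL1A encodes interleukin-1alpha, which acts from inside producing cells, on their surface and on neighbours. It had 1 probe (A_23_P72096, NM_000575), printed 10 times on each array. In hybridization 1 the mean signal of its spots was 599 for cl-sh3 over a local background of 162, and 1660 for the control over a background of 45.7. With the dyes reversed the signals were 360 for cl-sh3 over 42.2 and 1847 for the control over 172. The control was thus the brighter RNA with either dye, and both RNAs were well above background in both hybridizations. The single spots ranged from -2.87 to -2.41 in hybridization 1 (SD 0.13, n = 10 spots) and from -2.45 to -2.02 in hybridization 2 (SD 0.14, n = 10 spots). All 10 spots were past 2-fold in each hybridization, and the ranges of the arrays shared only the span from -2.45 to -2.41. The gap of 0.54 between the arrays was larger than the SD of the spots within either. By its mean, IL1A ranked 4 from the lowest of 36060 probes.

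IL1B encodes interleukin-1beta, the secreted form that is cleaved by caspase-1. Its probe (A_23_P79518, NM_000576) had log2 ratios of -0.60 and -0.48, with 4.93% of all probes lower in the mean. All 10 spots were below 0 in each hybridization. They ranged from -0.79 to -0.37 (SD 0.13, n = 10 spots) and from -0.70 to -0.36 (SD 0.11, n = 10 spots), and 0 of them reached 2-fold. The spots of IL1A and IL1B did not overlap in either hybridization. Both interleukin-1 forms were thus below 0 with either dye, IL1A by the larger amount.

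The further ligands showed no such difference. IL18, an inducer of interferon-gamma that is also matured by caspase-1, was at 0.04 in hybridization 1 and 0.61 in hybridization 2 (A_23_P104798, NM_001562). Its spots ranged from -0.15 to 0.25 in hybridization 1, with 5 above and 5 below 0. In hybridization 2 the 9 spots that were not flagged ranged from 0.42 to 0.77. Within an array the IL18 spots were close together, with an SD of 0.14 and 0.12, but the arrays disagreed on whether cl-sh3 differed from the control. IL33, a nuclear cytokine released on cell damage, was at 0.15 and -0.19 (A_23_P31945, NM_033439). IL1RN, the antagonist of IL1R1, was at 0.28 and -0.18 (A_23_P209995, NM_173842). Both changed sign with the dyes, and each rests on 1 spot per array.

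**Figure D2:**
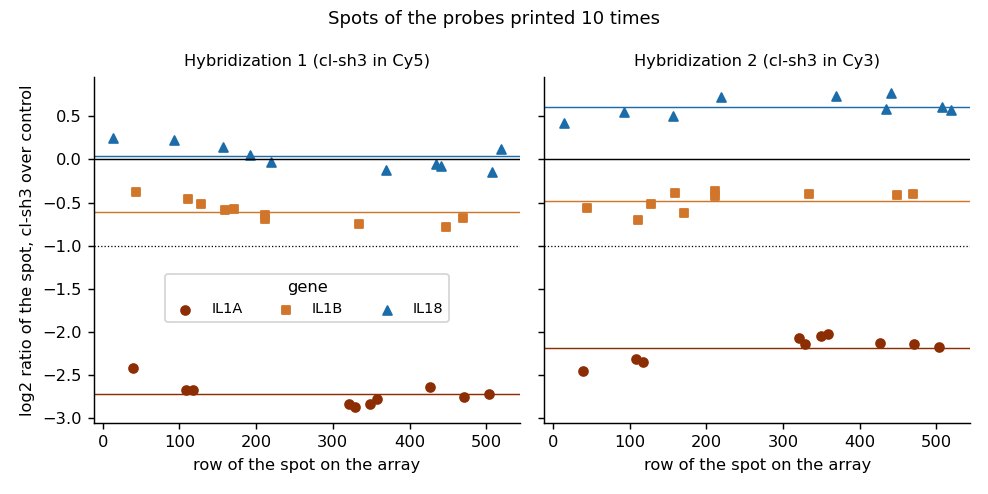
Log2 ratio of cl-sh3 over control for every spot of IL1A, IL1B and IL18, the family probes printed 10 times, against the row of the spot on the array, with 1 panel per hybridization. Coloured lines are the means of the spots and the dotted line marks 2-fold lower; the IL1A spots lie at or below -2.02 in both panels, while the IL18 spots straddle 0 in hybridization 1 and lie at or above 0.42 in hybridization 2.

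Of the receptors, IL1R1 is the signalling receptor for both interleukin-1 forms. Both of its probes were slightly below 0 with either dye, at -0.25 and -0.25 for A_23_P68006 and -0.41 and -0.11 for A_24_P200023. Their means of -0.25 and -0.26 correspond to 1.19-fold and 1.20-fold lower, and 15.6% and 14.9% of all probes had lower means. The decoy receptor IL1R2 binds interleukin-1 without signalling. Its probe A_23_P79398 was at -0.41 and 0.40, a reversal with the dyes that left a mean of -0.00, and its other probe A_24_P63019 was at 0.17 and -0.00. No direction can be given for IL1R2.

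IL1RAP, the accessory protein shared by the receptors for interleukin-1 and interleukin-33, had 4 probes. They were at 0.14 and 0.44 (A_23_P170857), 0.16 and -0.06 (A_24_P180165) and -0.31 and 0.34 (A_24_P148762) for NM_002182, and at 0.04 and 0.40 (A_23_P336554) for the transcript NM_134470. All 4 means were above 0, from 0.01 to 0.29, and 2 probes were above 0 in both hybridizations. The control was not well above background in hybridization 2 for A_24_P148762. The mean of the NM_134470 probe, 0.22, differed from that of A_23_P170857, 0.29, by less than the gap of either. IL1RL1, the interleukin-33 receptor, was not kept because neither RNA was well above background in hybridization 2. Its log2 ratios were 0.01 and -0.46 (A_23_P51126, NM_016232), with signals of 278 for cl-sh3 over a background of 149 and 106 for the control over 42.0 in hybridization 1. No fold is given for it.

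IRAK1 is the kinase that is recruited to the receptor complex through MYD88. It had log2 ratios of 0.41 and 0.46 (A_23_P73780, NM_001569), with 95.2% of all probes lower in the mean. It was the highest member in the mean, and with IL1R1 probe A_23_P68006 among the probes whose hybridizations differed least. IRAK1 was thus on the opposite side of 0 from IL1A, IL1B and IL1R1, and of these 4 genes IL1A alone reached 2-fold.

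Next, the values were placed in the order of the genes. The ligand genes IL1A, IL1B and IL1RN lie in a cluster of 9 protein-coding genes on chromosome 2, with IL1A and IL1RN at its ends. Whether the difference ran through the cluster was not tested, since the background flag does not show that the other genes are expressed. From IL1A and IL1B onward, IL37 was at 0.11 and 0.26, IL36G at 0.20 and -0.27, IL36A at 0.06 and -0.01, IL36B at -0.05 and 0.10, IL36RN at -0.17 and -0.06, and IL1F10 at 0.04 and -0.06. All of these are ligands or antagonists of the same family, and 0 of the 6 reached 2-fold. For IL37 the control was not well above background in hybridization 2. On the other side of IL1A, the nearest measured gene CKAP2L was at 0.47 and 1.03 and the next, SLC20A1, at -0.95 and -0.37. CKAP2L encodes a mitotic spindle protein and SLC20A1 a phosphate transporter, and they differed in sign. In the receptor cluster of 6 protein-coding genes, on the same chromosome, IL1RL2 was at 0.48 and 0.24, IL18R1 at -0.14 and 0.06 and IL18RAP at 0.04 and 0.18, beside the values of IL1R2, IL1R1 and IL1RL1 given above.

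**Figure D3:**
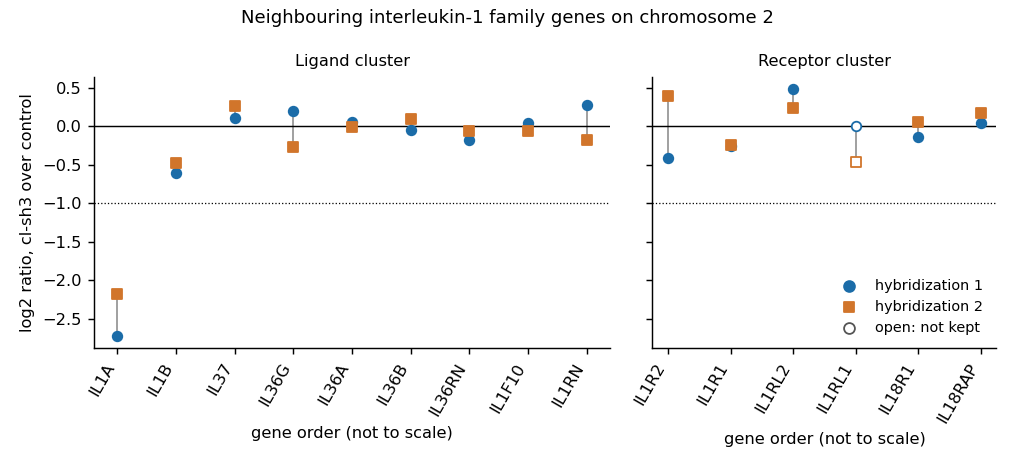
Log2 ratio of cl-sh3 over control for the protein-coding genes of the interleukin-1 ligand cluster (left) and receptor cluster (right), in gene order and not to scale, by the brightest probe of each gene. Circles are hybridization 1, squares hybridization 2, and open symbols a gene that was not kept; IL1A, at one end of the ligand cluster, lies past the dotted 2-fold line and its neighbours lie between -0.60 and 0.28.

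Further genes of the pathway were taken from lists of 77 genes, each gene by its brightest probe. The lists were chosen with earlier results of these data known. Of these, 74 were matched by accession and 72 were kept. At least 2-fold lower were 2 genes, MMP1 and PTX3, and 0 were at least 2-fold higher, beside 0.394% and 0.122% of all kept probes. In both hybridizations 28 of the 72 genes were below 0, 18 were above 0 and 26 had opposite signs, where the shares of all probes were 27.3%, 29.8% and 42.9%. The genes had a median of -0.04 beside 0.01 for all kept probes.

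The receptors and ligands outside the named family members had medians near 0, although IL1RL2 was at 0.48 and 0.24. Medians were 0.01 for 6 other ligands and 0.08 for 6 other receptors and binding proteins, among them the inhibitory receptor SIGIRR (0.08 and -0.04) and the soluble inhibitor IL18BP (0.34 and -0.01). The 12 genes of processing and release had a median of 0.01. CASP1, the protease of interleukin-1beta and interleukin-18, was at -0.14 and -0.11. CAPN1, a subunit of the calpain protease that cleaves interleukin-1alpha, was at 0.13 and 0.83, and CAPN2 at -0.12 and 0.48. S100A13, a carrier in the non-classical release of interleukin-1alpha, was at 0.62 and 0.40. The pore-forming GSDMD was at -0.06 and 0.97. None of these was called changed. Apart from MMP1 and PTX3, the pathway genes named here and in the accounts of signalling and of induced genes were picked for mention after their values were seen.

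Below the receptor, 18 signalling genes had a median of -0.10, with 9 below 0 and 7 above 0 in both hybridizations. MYD88 was at 0.14 and 0.01. The lowest mean belonged to TAB2, an adaptor of the kinase TAK1, at -0.99 and -0.43, and IRAK4, the kinase upstream of IRAK1, was at -0.70 and -0.18. For the 6 kept genes of NF-kappaB subunits and inhibitors the median was -0.07. RELB was at -0.75 and -0.26, NFKBIE at -0.83 and -0.36, REL at 0.53 and 0.40, and the feedback inhibitor NFKBIA at -0.08 and -0.07. In both hybridizations 3 of the 6 were below 0 and 1 was above 0. No gene of these lists was called changed.

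Of the genes known to be induced by interleukin-1, 24 of 26 were kept, with a median of -0.08. The 2 changed genes of the pathway are both in this list, which was written with earlier results of these data known. The paper reports MMP1 as lower in cl-sh3 from the same arrays, and by quantitative PCR, so that its place here is not independent of them. MMP1, the interstitial collagenase, was at -2.82 and -2.91, or 7.29-fold lower in cl-sh3, and PTX3, a secreted pattern recognition protein, was at -1.22 and -1.25, or 2.36-fold lower. Both had smaller gaps between hybridizations than IL1A. CXCL8, the neutrophil chemokine, was at -1.05 and -0.84 and so reached 2-fold in hybridization 1 alone. Its relative CXCL2 was at -0.50 and -0.97 with the brightest probe and at -0.15 and -0.01 with another. IL6 was at -0.14 and -0.14, CCL20 at 0.53 and 0.64, and BIRC3 at 0.41 and 1.02. PTGS2 was at -0.04 and -0.04, and its control signal was not well above background in hybridization 2. In both hybridizations 11 of the 24 genes were below 0, 5 were above 0 and 8 had opposite signs, beside the same 27.3%, 29.8% and 42.9% of all probes.

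**Figure D4:**
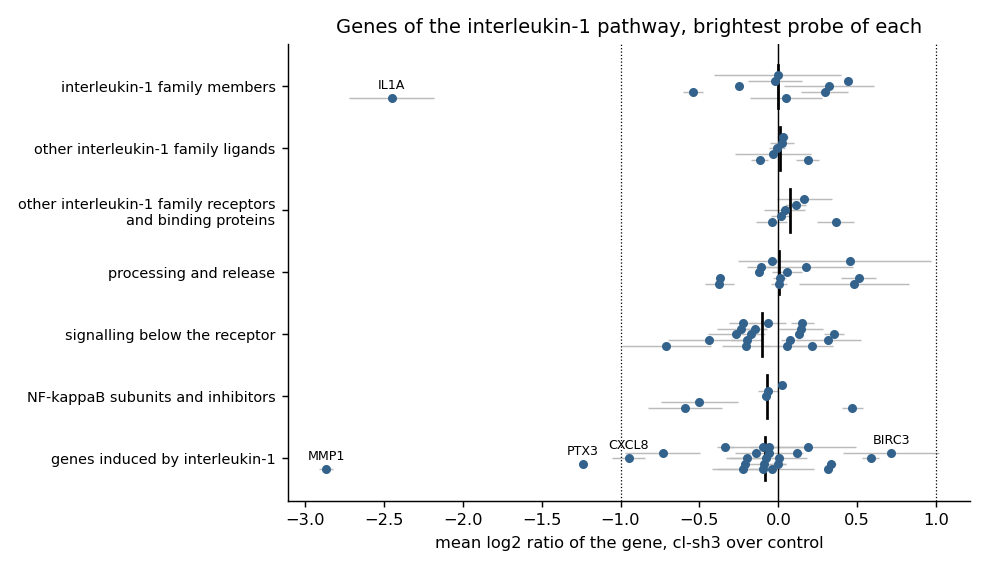
Mean log2 ratio of cl-sh3 over control for each kept gene (points), grouped by pathway list, with grey bars spanning the values of the hybridizations, black ticks the median of each list and dotted lines 2-fold. IL1A, MMP1 and PTX3 have both hybridizations beyond the lower line, and the medians of the lists lie between -0.10 and 0.08.

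Finally, the genes with the pair of log2 ratios most like that of IL1A were sought among all kept probes, by the sum of the absolute differences in both hybridizations. The nearest was SRGN, a proteoglycan core protein of secretory granules, at -2.63 and -1.97, a distance of 0.30. EDIL3, a secreted integrin ligand, followed at -2.33 and -2.17, a distance of 0.40. The next was the collagenase MMP13 at -2.27 and -2.21, a distance of 0.48, which in cl-sh3 passed the background flag on 1 of the arrays only. None belongs to the interleukin-1 family, and likeness over 2 arrays of 1 pair of RNAs describes only these RNAs.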

How the data were processed

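Both hybridizations were read from spot tables that the authors deposited, holding the intensity of each spot in both dyes, its local background and quality flags, and a log10 ratio of the dyes (Cy5 over Cy3) computed by the scanner software. Log10 ratios of each hybridization were also deposited as a separate table. The file headers name Feature Extraction 10.5.1.1, whereas the submitters' processing notes name 8.5.1.1. The normalization behind the paper's own list is not given in the sources used here. The deposited intensities are not normalized, and their spread over 2 arrays limits the precision.

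The median signals were corrected over the median local background with normexp (offset 50) in limma 3.58.1 (R 4.3.3). Normexp draws the ratios of dim probes towards 0. The 1639 control spots were removed from the 45015 spots of each array, and the remaining spots were normalized by loess. Afterwards 153 and 144 outlier spots were set to missing. Spots were averaged per probe, and the sign was turned for the reversed dyes. An RNA counted as well above background where at least 50% of a probe's spots carried that flag of the scanner software. The median signals of the arrays were between 451 and 902.5, over backgrounds between 43 and 166.5, with 0 saturated spots. Of the 36065 kept probes, 36060 were measured in both hybridizations.

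Probes were named through a RefSeq table (GRCh38.p14) and, for RUNX2, the study's supplementary gene list, which named 18024 of 19228 RefSeq accessions. IL1RAPL1, NFKB2, RELA and COL1A1 were not matched, and SELE and VCAM1 were not kept. The rule for named genes took all probes of the family, RUNX2, pathway genes at least 2-fold changed in both hybridizations, the 3 genes with ratios nearest to IL1A, and the 2 nearest measured genes on each side of it. Other pathway and marker genes in the text lie outside this rule and were chosen after their values were seen, except those given for their place in the gene clusters. The family members and the gene lists were chosen with earlier results of these data known. The lists were written from general knowledge: the other ligands, receptors, processing and release, signalling, NF-kappaB, genes induced by interleukin-1, and markers of 4 cell classes. The 5 endothelial markers had a median of -0.03 and the 5 kept fibroblast and mesothelial markers of -0.10. The normalization and the 2-fold rule were tested on simulated data. Both RNAs share 1 slide, and no batch could be examined. Alternatives were other background corrections and normalizations, flagged spots kept, other filters, the software's and the deposited ratios, single hybridizations, a 2-fold rule on the mean, and, chosen after seeing the data, removal of a trend over rows and columns (loess span 0.1). Outside R, pandas 2.3.3, numpy 2.4.6 and matplotlib 3.10.9 were used under Python 3.11.15. Some columns hold the software's own p-values and were not used.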

Additional observations from a re-analysis of the deposited data

How the results depend on the processing

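The counts of family probes at least 2-fold lower (1, IL1A) and higher (0) in cl-sh3 did not change under any alternative that was run. The log2 ratio of IL1A ranged from -2.73 with the ratios of the scanner software to -2.24 without background correction, and from -2.72 to -2.18 over single hybridizations. Of the 13 other kept family probes, 8 kept the sign of their mean in all 10 alternatives that used both hybridizations. Fewer than 10 of these are distinct checks. The normalization between arrays left the ratios as they were, as did the other filters for the probes they kept. Keeping flagged spots moved only IL18, and the software's and the deposited ratios were nearly the same numbers. The exceptions were one probe of IL1R2, 2 of IL1RAP, and those of IL1RN and IL33, with means between -0.06 and 0.17. The pathway genes at least 2-fold higher numbered 0 to 1 over single hybridizations, the 1 being BIRC3 in hybridization 2 alone, and those at least 2-fold lower were 2 or 3, with CXCL8 added in hybridization 1 alone. Over all kept probes, 142 were lower and 44 higher, or 76.3% lower. The split was 61.7% lower with median centring in place of loess (124 lower, 77 higher), 85.2% in hybridization 1 alone (506 and 88) and 47.4% in hybridization 2 alone (197 and 219). With the software's ratios 253 were lower and 103 higher, and with the mean of both hybridizations past 2-fold 250 and 93. The causes were not tested. No paired analysis was possible because both arrays hold the same pair of RNAs. A block by slide was not run, since both arrays lie on 1 slide. Probes near background, such as that of IL1RL1, have ratios that the arrays cannot resolve.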

Other observations

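The deviation of a spot from the mean of its probe moved with its row on the array. As cl-sh3 over control it moved in opposite directions on the 2 arrays. Since the sign was turned for the reversed dyes, the trend in Cy5 over Cy3 ran the same way on both. Over the 256 kept probes printed 10 times, the median deviation in rows 1 to 133 of 532 was 0.12 in hybridization 1 and -0.10 in hybridization 2, and in rows 267 to 399 it was -0.08 and 0.09. The topmost IL1A spot, in row 40, was at -2.41 in hybridization 1 and -2.45 in hybridization 2, the IL1A spot nearest to 0 in the first and the farthest from it in the second. In row 14, the topmost IL18 spot was the highest of its array in hybridization 1 (0.25) and the lowest in hybridization 2 (0.42). With a trend over rows and columns removed, an alternative chosen after seeing the data, the median gap of a probe between the hybridizations fell from 0.22 to 0.18 and its 95th percentile from 0.63 to 0.54. The IL1A mean stayed at -2.45, and IL18 was at 0.03 and 0.66, so that its gap between the hybridizations did not shrink. Probes printed once, which 12 of the 15 family probes are, have no such check within an array.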
